A study of Mus musculus with 26 samples.

Results

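Distal open regions bound by CTCF were regions of accessible chromatin in mouse embryonic stem cells (mESC) that lay away from genes' starts and also carried a CTCF peak. A region was a member if it stood in the M-ATAC peak list of merged replicates, lay farther than 3 kb from every GENCODE M21 transcription start and shared at least 1 bp with a region of the merged CTCF M-ChIP list. The rule found 4631 regions among 66726 distinct open regions, or 6.94% of them. They made up 11.5% of the 40259 open regions beyond 3 kb. The other classes of open regions were 35628 distal regions without a CTCF region (distal unbound), 3828 regions within 3 kb of a start with one (promoter CTCF-bound) and 22639 within 3 kb without one. On the CTCF side, 4660 of the 38881 merged CTCF regions (12.0%) touched a member, while 22739 CTCF regions were distal and outside every open region (closed distal CTCF regions).

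CTCF is a zinc finger protein that binds a long DNA motif, blocks contacts between enhancers and promoters at insulators and, together with cohesin, anchors chromatin loops. Its binding leaves a short stretch of open DNA with ordered nucleosomes on either side. Methylation of cytosines in CpG dinucleotides, which is spread over most of the mammalian genome, is low at bound CTCF sites and can block binding at some motif cytosines.

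All samples used here were mESC of the strain KH2, for which the labels of these assays give no further genotype (the expression samples are labelled WT). They were grown on irradiated feeder cells, which were taken out by a short plating step before the assays. M-ATAC (4 samples) tags open chromatin with a transposase that carries methylated adaptors, and bisulfite conversion of the tagged DNA then gives accessibility and cytosine methylation from the same reads. Its controls were aliquots taken before conversion (M-ATAC-NC, 2 samples) and standard ATAC-seq with Nextera adaptors (ATAC, 2 samples). CTCF M-ChIP (2 samples) does the same on chromatin pulled down with an antibody to CTCF, with CTCF M-ChIP-NC, again aliquots left unconverted (2 samples), and CTCF ChIP with Nextera adaptors (2 samples) as its controls. Nothing states that samples of a group came from separate cultures, so p-values measure the spread between these samples, which may be technical. The methylation tables and the expression table hold merged replicates, and values from them have no replicate error.

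Samples of the open chromatin assays had 24113 to 32999 peak regions and those of the CTCF assays 22261 to 49633, and the number of reads per sample is not in the files used. All 8 embryonic stem cell markers were expressed, at 228.85 to 5393.76 TPM (transcript reads scaled for length and depth), as was Ctcf at 82.94 TPM. The 8 markers of feeder fibroblasts summed to 132.01 TPM against 8726.04 TPM for the stem cell markers, with Col1a1 at 48.69 TPM and Lum at 0.08 TPM. Vim and Fn1, which a longer list of feeder markers also held, are not in that sum, so it may be too low. Any part of feeder cells in the open regions was not tested.

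The CTCF motif is 19 bp long, and the sequences below are the matches of highest score in the regions described by name further on. They show how far sites in open distal chromatin range from the common form, and where CpGs (in capitals) stand in them. Each was copied from the deposited matches to the motif MA0139.1 and is written along the strand of the motif, with mm10 (GRCm38) coordinates of the open region.
Most frequent base at each position over 4023 matches: tggccaccagggggCGcta
Gm2619, chr1:85323264-85323448, highest CTCF fold: ccaccactagatggtgcta
Gm49554, chr16:3122876-3123139, high CTCF fold: tggccagaaggggtCGcaa
Hepacam2, chr6:3447509-3447719, high CTCF fold: tgtccagtagatggtgata
Gphn, chr12:78350870-78351174, highest M-ATAC fold: taagcaggaggtgtcagaa
Gm10509, chr17:21679386-21680220, high M-ATAC fold and low methylation: tcaccacaagaaggcagac
Zfp286, chr11:62756681-62757256, high M-ATAC fold: gctccaccagagggCGcag
Gm48527, chr13:12925685-12925926, highest methylation: ccatcactagatggCGcca
Uck2, chr1:167231040-167231270, high methylation: tggcctgcaggcagcagca
AC151473.1, chr17:61902964-61903187, high methylation: ccatcacaagatggCGtca
Nxpe3, chr16:55858580-55858785, methylation rising away from the motif: CGacctcaagggggcagtg
Anxa13, chr15:58383414-58383699, methylation rising away from the motif: atgccaccagggtgCGctg
Tmem231, chr8:111923617-111923826, methylation rising away from the motif: tctccagttggtggCGcta
Gm44738, chr7:73617918-73618914, lowest methylation: CGgccaccagggggcagcc
Rpn1, chr6:88074960-88075477, low methylation: ctgcCGctagggggtgtgg
Evx2, chr2:74655854-74656133, nearest to a Hox gene: ctacCGctggggggCGccc
Cdkn1c, chr7:143466446-143466724, nearest to an imprinted gene: tgaccaccagggggcagaa
Dppa3, chr6:122633339-122633719, nearest to a pluripotency gene: ctgcctctaggtggagaca
Smc3, chr19:53648851-53649024, nearest to a gene of cohesin or a CTCF partner: tagccactagagggagccc

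The regions were narrow and CpG-poor beside those of promoters. Their median width was 209 bp (middle 50% from 156 to 325 bp, longest 1583 bp), against 257 bp in distal unbound and 336 bp in promoter CTCF-bound regions. They held a median of 1.74 CpGs per 100 bp and 53.3% GC, between distal unbound (0.984 and 49.4%) and promoter CTCF-bound regions (4.44 and 59.0%). A single summit was called in 90.4% of them. By GENCODE M21, 50.9% lay between genes, 39.0% in introns and 10.1% touched an exon, with 4.12% touching an annotated UTR. The median distance to the nearest transcription start was 11198 bp. The gene of that start was expressed at a median of 0.87 TPM, against 0.26 TPM for distal unbound and 6.33 TPM for promoter CTCF-bound regions. On chromosomes 1 to 19 and X, the share of distal open regions that were CTCF-bound ran from 6.26% on X (57 of 910) to 14.8% on chromosome 7 (323 of 2178). On either side of the 3 kb bound the regions were much alike. The 428 members at 3 to 4 kb had a median width of 202.5 bp, an M-ATAC fold of 6.66 and mean methylation of 7.08%. The 468 CTCF-bound open regions at 2 to 3 kb just outside the rule had 202 bp, 6.66 and 5.88%.

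A motif match lay wholly inside 4023 of the 4631 regions (86.9%, Wilson 95% interval 85.9 to 87.8%). Another 58 had only a match cut by the region's edge, and 550 (11.9%) had none. Of the regions with a match, 3196 had 1, 704 had 2 and 123 had 3 or more. In 464 of the 704 regions with 2 matches the matches did not overlap, and there both stood on the same strand in 244 (52.6%), with a median of 62 bp between their centres. The best match had a median FIMO score of 17.9, where a higher score is a closer fit to the motif. It was 16.6 in promoter CTCF-bound regions and 17.1 in closed distal CTCF regions.

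Motif sequences differed between the settings in their CpGs and in repeats. The best match held no CpG in 51% of members, in 33.6% of promoter CTCF-bound regions and in 61.1% of closed distal CTCF regions. A CpG at motif position 15 stood in 36.8% of members (promoter 51%, closed 31.7%) and one at position 5 in 7.66% (promoter 22.0%, closed 2.54%). Positions were counted from 1 at the 5′ end of the motif. The match lay wholly in soft-masked (repeat) sequence in 7.93% of members (319 of 4023), in 5.14% of promoter CTCF-bound regions and in 34.1% of closed distal CTCF regions. The most frequent bases of those 319 matches spelled aggccagaagagggcacca, and 10 members shared the exact match aggccagaagagggcatca. Neither of these sequences has a CpG.

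Fold enrichment, the height of a peak over the local background, was moderate for accessibility and high for CTCF. The median M-ATAC fold was 7.07 (middle 50% from 5.41 to 9.15, highest 58.5), against 6.66 in distal unbound and 7.95 in promoter CTCF-bound regions. The median CTCF fold was 11.5 (8.54 to 14.8, highest 43.5), against 10.9 in promoter CTCF-bound and 9.34 in closed distal CTCF regions. Both lists were used to choose the members, so these folds are a description. Across members the folds of the assays were almost unrelated, with a Spearman rho of 0.0810 over 4631 regions (from −0.038 to 0.191 by chromosome), and M-ATAC fold followed width instead (rho 0.402). The correlations are across regions that share the same merged libraries, and regions are not replicates.

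**Figure D1:**
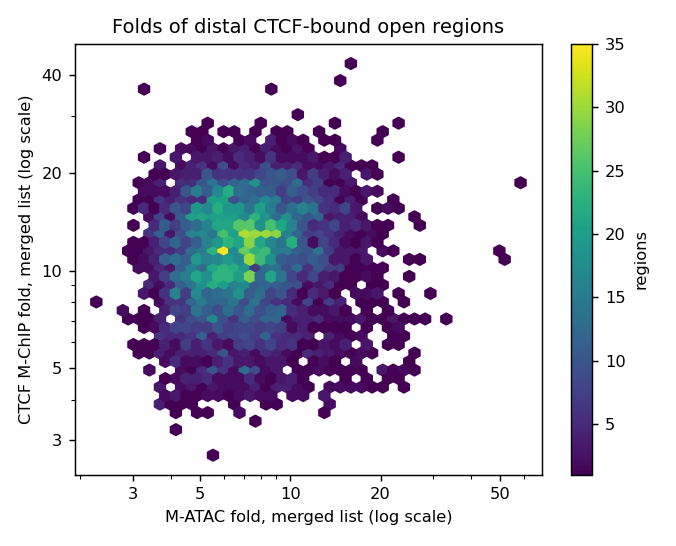
Fold in the merged CTCF M-ChIP list (vertical, log scale) against fold in the merged M-ATAC list (horizontal, log scale) for the 4631 distal CTCF-bound open regions, with colour for the number of regions in each hexagon. The cloud is round, with a Spearman rho of 0.0810, and a thin tail of regions with M-ATAC fold up to 58.5 runs to the right of it.

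Members with a higher CTCF fold more often had a motif and were more often found in both CTCF M-ChIP samples. From the lowest to the highest 25% of CTCF fold, the share with a motif match was 75.5%, 87.7%, 90% and 94.4%, and the median score of the match 16, 17.7, 18.5 and 18.7. The share found in both CTCF M-ChIP samples was 34.2%, 80.7%, 94.9% and 99.5%. The CTCF fold came from the merged reads of these same samples, so this rise is not independent support. In CTCF ChIP, which the rule did not use, a peak overlapped 85.9%, 98.8%, 99.8% and 99.8% in replicate 1. In replicate 2 the shares were 96.4%, 99.7%, 100% and 99.9%. The M-ATAC fold moved little, from 6.71 to 7.43, and the share found in no single M-ATAC sample stayed between 45.0% and 51%. Over all members with a match, CTCF fold and motif score had a rho of 0.218 and M-ATAC fold and motif score one of −0.0442 (n = 4023).

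Support by single samples was weak for accessibility and strong for CTCF. The merged lists that chose the members came from libraries of these same assays, so this support is a description. The assays also differed in their number of samples, 4 for M-ATAC and 2 for CTCF M-ChIP. No single M-ATAC sample had a peak over 2247 members (48.5%), which were open regions of the merged list alone. Another 1074 (23.2%) were found in 1 of the 4 samples, 505 (10.9%) in 2, 313 (6.76%) in 3 and 492 (10.6%) in all 4. Among distal unbound regions 38.1% were found in no sample and 16.6% in all 4, and among promoter CTCF-bound regions 31.1% and 31.4%. The CTCF region was found in both CTCF M-ChIP samples for 3580 members (77.3%), in 1 for 843 (18.2%) and in neither for 208 (4.49%), while 59.7% of closed distal CTCF regions were found in both. The 335 members found in all 4 M-ATAC and both CTCF M-ChIP samples were 7.23% of the set.

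Members with more support in M-ATAC were wider and higher, but not in CTCF. From 0 to 4 samples the median width was 160, 223.5, 298, 353 and 455 bp and the median M-ATAC fold 5.82, 7.07, 8.51, 9.97 and 13.1. The median CTCF fold was 11.6, 11.5, 11.7, 11.5 and 11.2. Among regions of like width the gap to distal unbound regions was small and changed sides. Cut at the quartiles of the members' width, the shares found in no M-ATAC sample were 89.2% of members and 88.4% of distal unbound regions in the narrowest class, 59.5% and 64.5% in the second, 34.3% and 30.0% in the next, and 10.7% and 7.66% in the widest.

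**Figure D2:**
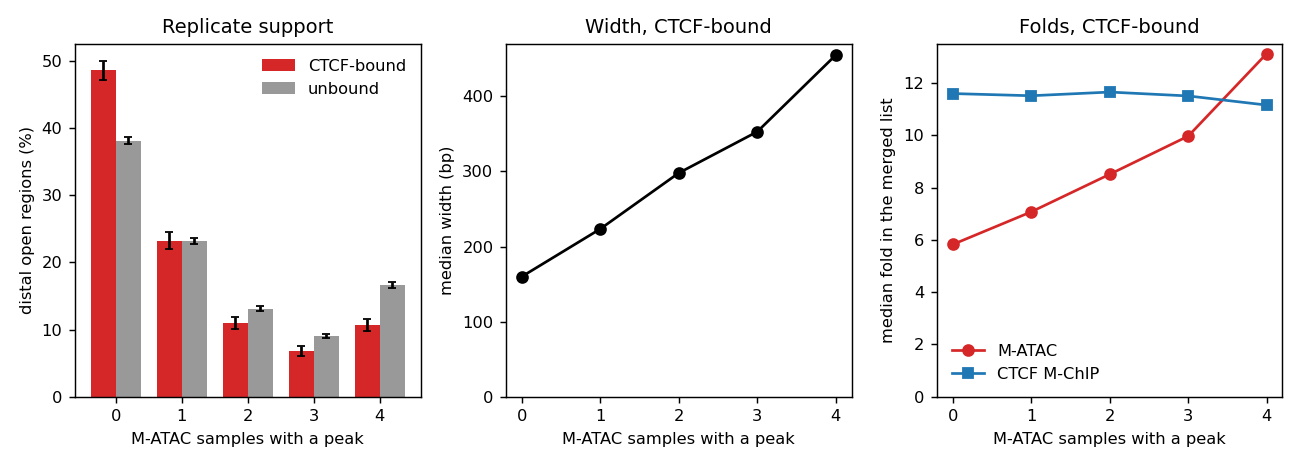
Left, percent of distal CTCF-bound (red) and distal unbound (grey) open regions by the number of M-ATAC samples with a peak over them, with Wilson 95% intervals that cover counting error only. Middle and right, median width in bp and median M-ATAC and CTCF M-ChIP fold of the distal CTCF-bound regions by the same number. Width and M-ATAC fold rise from 160 to 455 bp and from 5.82 to 13.1 while the CTCF fold stays between 11.2 and 11.7.

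The samples allowed a check of whether bisulfite conversion or the transposase changed which members were found. A peak overlapped 26.9%, 28.8%, 27.3% and 24.8% of members in M-ATAC replicates 1 to 4, 25.5% and 30.1% in M-ATAC-NC, and 20.5% and 28.7% in ATAC. The 3 groups overlapped, and ATAC replicate 1 was the lowest. The means were 26.9% ± 1.63 (SD, n = 4), 27.8% ± 3.28 (SD, n = 2) and 24.6% ± 5.79 (SD, n = 2). M-ATAC differed from M-ATAC-NC by −0.880 percentage points (exact permutation test, two-sided, p = 0.733, adjusted p = 0.733 by Benjamini-Hochberg over 7 tests) and from ATAC by 2.34 points (exact permutation p = 0.6, adjusted p = 0.733). Neither difference was larger than the spread between samples. With 4 against 2 samples the smallest p is 0.0667. Both differences turned with 1 library left out: without M-ATAC-NC replicate 2 the first was 1.44 points and without its replicate 1 −3.20. Without ATAC replicate 1 the second was −1.75 points and without its replicate 2 6.43. Because the merged list came from M-ATAC libraries, its samples are not an independent test of these regions, and neither are the M-ATAC-NC samples, which are aliquots of such libraries. Where a peak had to cover at least 50% of the region, the difference from M-ATAC-NC was −4.78 points (exact permutation p = 0.0667) and that from ATAC −0.232. Sample peaks over members were narrower in M-ATAC, with median widths of 195, 194, 229 and 212 bp. They were 378 and 389.5 bp in M-ATAC-NC and 317 and 315 bp in ATAC. Wider peaks meet either overlap rule more easily, and the part of peak width in these shares was not tested.

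In every one of the 8 open chromatin samples the share of members found was below that of distal unbound regions, by 4.68 to 12.0 percentage points. The distal unbound shares were 31.6%, 35.9%, 38.8% and 36.8% in M-ATAC, 35.6% and 40.6% in M-ATAC-NC, and 27.3% and 35.8% in ATAC. Members were also narrower than distal unbound regions, as given above, and the part of width in the gap was not tested beyond the split by width.

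CTCF peaks overlapped 91.4% and 80.4% of members in CTCF M-ChIP, 71.8% and 85.0% in CTCF M-ChIP-NC, and 96.1% and 99.0% in CTCF ChIP. Both CTCF ChIP samples lay above all 4 others. The merged CTCF list that chose the members came from CTCF M-ChIP libraries. The CTCF M-ChIP samples are therefore not an independent test of these regions, and neither are their unconverted aliquots. CTCF M-ChIP (85.9% ± 7.80, SD, n = 2) differed from CTCF M-ChIP-NC (78.4% ± 9.36, SD, n = 2) by 7.54 points (exact permutation p = 0.667, adjusted p = 0.733). It differed from CTCF ChIP (97.5% ± 2.05, SD, n = 2) by −11.6 points (exact permutation p = 0.333, adjusted p = 0.583), and 2 against 2 samples cannot give a p below 0.333. The CTCF ChIP samples also had the most peak regions of the CTCF assays, 40046 and 49633 against 22261 to 32911. The first difference was 0.918 points without CTCF M-ChIP-NC replicate 1 and 14.2 without its replicate 2, and the second −17.1 without CTCF M-ChIP replicate 1 and −6.11 without its replicate 2. The second was −22.3 points where a peak had to cover 50% of the region and −19.8 among sample peaks of −log10 q of at least 5. Peaks over members had median widths of 326 and 401 bp in CTCF ChIP, against 243 and 219 bp in CTCF M-ChIP. Distal unbound regions, which lack a merged CTCF region by definition, were overlapped in 0.0730% to 1.69%.

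**Figure D3:**
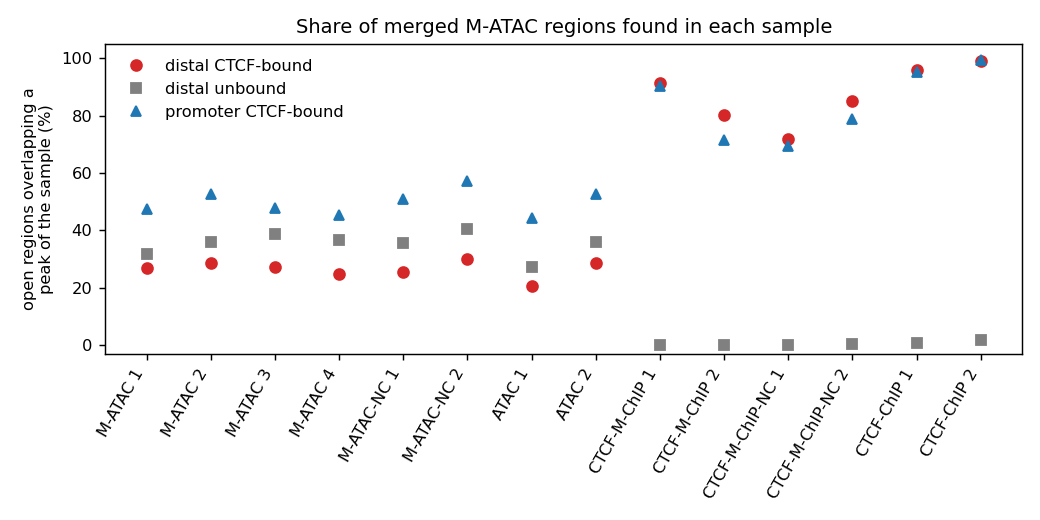
Percent of merged M-ATAC regions that a peak of each sample overlaps, for distal CTCF-bound (red circles), distal unbound (grey squares) and promoter CTCF-bound (blue triangles) regions, with 1 column for each of 14 samples. Distal CTCF-bound regions lie lowest in the 8 open chromatin samples, at 20.5% to 30.1%, and at 71.8% to 99.0% in the 6 CTCF samples.

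Where members were found, their fold was slightly below that of distal unbound regions, and over all sample peaks the gap was smaller in M-ATAC than in its controls. Their median fold was 6.35, 6.88, 6.38 and 6.36 in M-ATAC, 5.81 and 5.93 in M-ATAC-NC, and 5.18 and 5.29 in ATAC. Distal unbound regions had 6.54, 7.13, 6.68 and 6.76 in M-ATAC, 6.31 and 6.52 in M-ATAC-NC, and 5.69 and 5.70 in ATAC. The ratio of the medians, from which the scale of a sample drops out, was 0.972, 0.965, 0.954 and 0.940 in M-ATAC (0.958 ± 0.0139, SD, n = 4). All 4 values stood above both M-ATAC-NC samples (0.914 ± 0.0078, SD, n = 2) and both ATAC samples (0.919 ± 0.0115, SD, n = 2). The differences were 0.0436 from M-ATAC-NC and 0.0391 from ATAC, each with the smallest exact permutation p that 4 against 2 samples allow (0.0667, adjusted p = 0.233). Neither passed 0.05. Both classes of regions were chosen from the merged list of M-ATAC libraries, and each ratio covers only the regions that its sample found. The M-ATAC samples and their unconverted aliquots are therefore not an independent test of these ratios. The part of this choice of regions in the differences was not tested. Among sample peaks of −log10 q of at least 5 the differences shrank to 0.0101 (exact permutation p = 0.467) and 0.0187 (p = 0.133), and the groups were no longer fully apart.

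**Figure D4:**
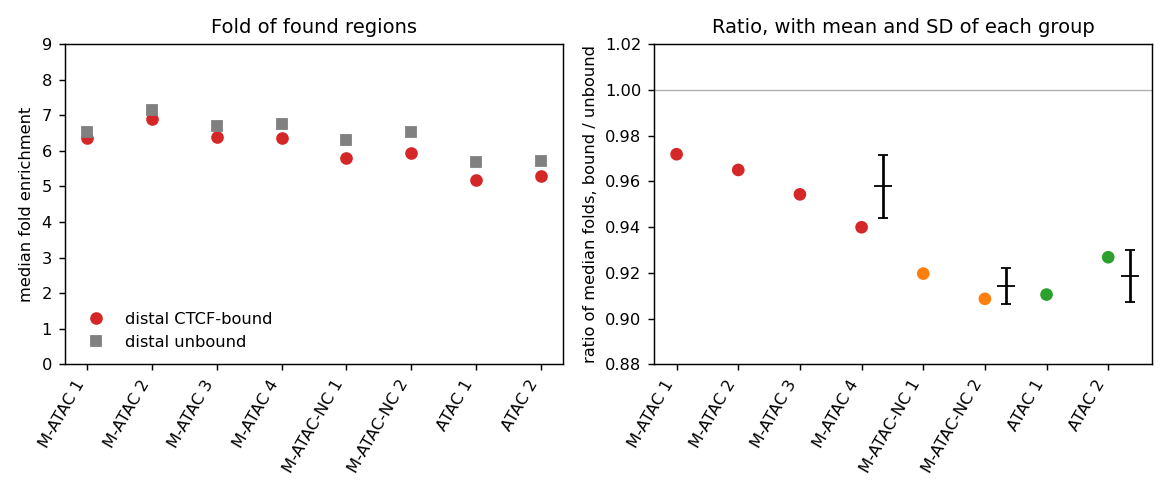
Left, median fold enrichment of distal CTCF-bound (red) and distal unbound (grey) regions found in each of the 8 open chromatin samples. Right, the ratio of the medians by sample, on an axis that does not start at 0, with the mean and SD of each group in black and a line at a ratio of 1. The M-ATAC ratios lie between 0.940 and 0.972 and the others between 0.909 and 0.927.

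In the merged list, the summit of accessibility lay close to the centre of the motif and leaned to its 3′ side, by a median of 3 bp. The match had to lie wholly inside the region, which bounds this distance. In the merged list the M-ATAC summit was within 25 bp of the motif centre in 55.5% of 4023 members, with a median distance of 21 bp, and 54.1% of summits off the centre lay on the 3′ side (Wilson 95% interval 52.5 to 55.6%). The CTCF summit, at a median distance of 19 bp, leaned the other way, with 44.1% on the 3′ side (42.6 to 45.7%). Single samples had summits farther from the motif centre, over the 787 to 1156 members with a match that each open chromatin sample found. These sets differ from the 4023 members above, and members found in more M-ATAC samples were wider. The part of width in these distances was not tested. Their median distance was 52, 47, 59 and 60 bp in M-ATAC, 99 and 92 bp in M-ATAC-NC, and 94 and 80 bp in ATAC. In single samples the 3′ share was 54.9%, 56.9%, 55.3% and 53.9% in M-ATAC, 55.4% and 54.7% in M-ATAC-NC, and 53.4% and 51.7% in ATAC. All 8 open chromatin samples were above 50% and all 6 CTCF samples, at 40.8% to 45.4%, below it. The M-ATAC mean was 55.2% ± 1.27 (SD, n = 4), 5.25 points above 50% (two-sided exact permutation test by sign flips, p = 0.125, which is the lowest value 4 samples can give, adjusted p = 0.292). It did not pass 0.05.

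Methylation of the members was low, between that of distal unbound regions and of promoters. Over 33960 cytosines with at least 5 reads in 4028 regions, mean methylation was 6.87% (SD over chromosomes 1.40), with a median of 8 reads per cytosine. Of these cytosines 86.3% were below 20%, 13.4% between 20% and 80%, and 0.356% above 80%. Distal unbound regions averaged 11.8% and promoter CTCF-bound regions 1.36%. The members were lower than distal unbound regions on every one of 20 chromosomes, by 4.95 points in all (3.05 to 8.15), and higher than promoter CTCF-bound regions on every one, by 5.51 points (SD 1.27). These tables hold merged reads and allow no test between classes of regions. With 5 reads a cytosine's methylation moves in steps of 20%, and both gaps changed with the minimum of reads, to −2.54 and 3.40 points at 10 reads. Within quartile classes of CpG density the gap to distal unbound regions was on average −2.39 points.

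By region, 2946 members had at least 3 such cytosines, and their median methylation was 5.26%. Methylation was 0% in 408 of them (13.8%) and below 20% in 2510 (85.2%, Wilson 95% interval 83.9 to 86.4%). Only 4 were above 80%.

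Methylation around the motif rose and fell in waves. Among the classes of distance given next, it was lowest inside the motif, at 4.15% (3843 cytosines). It rose to 5.27% at 10 to 25 bp from the motif centre, 7.48% at 25 to 50 bp and 9.14% at 50 to 100 bp, fell to 5.35% at 100 to 150 bp and 5.85% at 150 to 200 bp, and was 9.21% at 200 to 300 bp and 4.87% beyond. In 20 bp steps the maxima stood at 60 bp (9.81%) and 240 bp (11.6%) with a minimum between them at 140 bp (4.41%). The maxima were 180 bp apart. Farther out, the value at 360 bp (3.73%, 183 cytosines, SD over chromosomes 3.91) was below that in the motif. The positions of maxima and minimum were read from the profile after it was seen, each within a range of distances set for it.

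The pattern held on most chromosomes and in wide regions, and was less clear in narrower ones. The ring at 50 to 100 bp was above the motif on 20 of 20 chromosomes (4.99 points, SD 2.1) and above the ring at 100 to 150 bp on 18 of 20 (3.79 points, SD 2.63). The ring at 200 to 300 bp was above that at 100 to 150 bp on 17 of 20 (3.86 points, SD 4.44). Few narrow regions reach 200 bp, and narrow ones were more methylated, so the profile was also taken over members of at least 300 bp alone. There it was 2.62% in the motif, 5.04% at 50 to 100 bp, 3.20% at 100 to 150 bp and 8.56% at 200 to 300 bp, and the last ring was above the trough on 20 of 20 chromosomes (5.36 points, SD 3.74). Members of 150 to 300 bp had 12.2% at 50 to 100 bp, 10.1% at 100 to 150 bp (SD 7.24) and 11.8% at 150 to 200 bp. At 200 to 300 bp they had 30.5%, from 65 cytosines in 44 regions. Distance to the region's edge was not separated from distance to the motif, and the paper reports higher methylation toward peak edges. Promoter CTCF-bound regions of at least 300 bp had maxima at 60 bp (1.42%) and 220 bp (1.61%) and a minimum at 140 bp (0.597%), at a level far below that of the members.

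**Figure D5:**
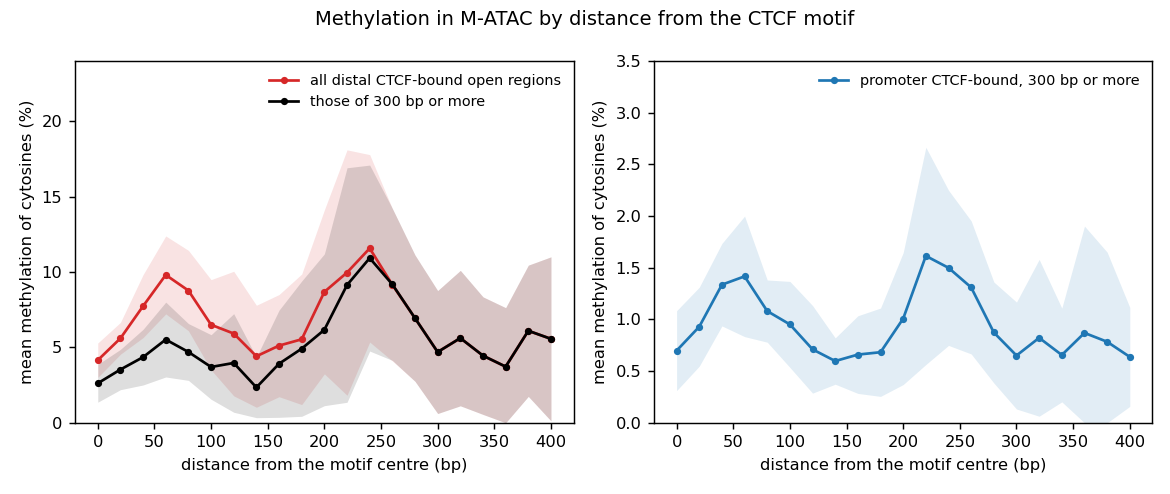
Mean methylation in the merged M-ATAC table by distance from the centre of the best CTCF motif match, in 20 bp steps, for all distal CTCF-bound open regions (red) and those of at least 300 bp (black) on the left, and for promoter CTCF-bound regions of at least 300 bp on the right, whose axis is smaller. Shading is the SD over chromosomes. On the left the curves have maxima at 60 and 240 bp and a minimum between them at 140 bp.

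Within regions, each of these rings was also above the motif on average. Each ring was compared with the motif in its own set of regions, and the rings were not compared with each other. In the 1033 members with cytosines in the motif and at 50 to 100 bp, the ring was on average 7.18 points above the motif, higher in 572 regions, lower in 147 and equal in 314. In 442 members with cytosines at 100 to 150 bp the difference was 2.48 points, and in 316 with cytosines at 200 to 300 bp it was 12.3 points, higher in 187 and lower in 28. From 100 to 200 bp as a whole the ring was 1.38 points above the motif over all cytosines (5.53% against 4.15%, higher on 14 of 20 chromosomes, SD 2.33) and 3.07 points within 538 regions. It fell to 0.438 points with at least 10 reads and 0.570 as methylated over all reads, and it was itself smaller than the SD over chromosomes. The 5′ side exceeded the 3′ side at 50 to 100 bp by 2.59 points (18 of 20 chromosomes, SD 2.72), but only by 0.70 points on 13 of 20 chromosomes in members of at least 300 bp.

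Within the motif, methylation depended on the position and strand of the CpG in both assays. The CTCF M-ChIP methylation table lists cytosines of motif matches alone. Over motif cytosines with at least 5 reads, mean methylation was 4.22% in M-ATAC (3706 cytosines, SD over chromosomes 1.17) and 4.26% in CTCF M-ChIP (4489 cytosines, SD 1.18). On the 3945 cytosines measured in both, the means were 3.90% and 4.35%, with CTCF M-ChIP higher by 0.448 points, higher at 751 cytosines and lower at 537. CpGs at position 5 had 1.91% and 1.87% and those at position 15 had 4.62% and 4.68%. Higher values stood at position 18, with 8.40% (167 cytosines) and 8.64% (204), and at position 8, with 18% and 17.5% (24 cytosines of 15 regions in each, with medians of 6 and 9 reads).

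No single cytosine was called different between the assays at this depth. Fisher's exact test with Benjamini-Hochberg adjustment over all 10066 cytosines with at least 5 reads in both tables called none below 0.05 (0.0% called), and none of the 3945 in members. At an unadjusted p below 0.05 there were 15 in members and 20 in all. The test compares pools of reads rather than replicates, and with medians of 8 and 12 reads small differences could not be detected.

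The cytosines of a CpG were compared by strand where both had at least 5 reads. Inside the motif, the cytosine on the strand opposite the motif averaged 4.26% and that on the motif strand 3.23% in M-ATAC, a difference of 1.03 points over 1425 CpGs (18 of 20 chromosomes, SD 1.25). In CTCF M-ChIP the values were 4.17% and 3.29%, a difference of 0.876 points over 2021 CpGs (19 of 20 chromosomes, SD 0.646). Most CpGs were equal on both strands, 1036 and 1339 of them. The sign turned at 10 to 50 bp on the 3′ side, where the opposite strand was lower by 0.663 points (higher on 2 of 20 chromosomes, SD 1.00). On the 5′ side at that distance the difference was 0.105 points (9 of 20). In promoter CTCF-bound motifs it was 0.113 points in M-ATAC (12 of 20 chromosomes) and 0.383 points in CTCF M-ChIP (16 of 20). These strand differences were looked for after the values by position had been seen.

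Methylation fell with support, width, fold and CpG density. It was 10.2% in members found in no M-ATAC sample, 9.06% in those found in 1, 6.30% in those found in 2 or 3 and 3.28% in those found in all 4. Distal unbound regions had 18.3% with no sample and 6.57% with all 4. By quartile class from low to high, members had 11.5%, 9.22%, 8.01% and 4.67% by width, 9.40%, 8.60%, 6.75% and 5.35% by M-ATAC fold, and 8.08%, 7.17%, 6.55% and 5.64% by CTCF fold. CpG density gave the widest range of these, from 15.4% through 12.0% and 8.61% to 4.22%, while distal unbound regions in the same classes had 16.8%, 14.0%, 12.0% and 6.92%. At the level of regions the rho with methylation was −0.296 for CpG density, −0.147 for width, −0.106 for CTCF fold and −0.0752 for M-ATAC fold (n = 2946). CpG density, width and fold vary together, and their separate parts were not tested.

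Location and repeats also went with methylation. Members in introns averaged 9.68%, those touching exons 6.93% and those between genes 5.52%. Members whose best match was wholly soft-masked averaged 12.2% (1271 cytosines in 244 regions, SD over chromosomes 6.24), against 6.23% where the match was not masked. Members with a motif match averaged 6.70% and those without 7.96%.

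The region of highest CTCF fold, in an intron of Gm2619, a predicted gene, had a fold of 37.2 and 39.1 in CTCF M-ChIP, 29.3 and 34.2 in CTCF M-ChIP-NC and 45.1 and 45.8 in CTCF ChIP. It was the most methylated of the 3 regions of highest CTCF fold, with 54 of 97 reads methylated (55.7%, Wilson 95% interval 45.8 to 65.2%), and 87.0% of its bases and its whole motif were soft-masked. Its match has no CpG, and 1 of the 4 M-ATAC samples had a peak there. The other two regions, 14291 bp from Gm49554 and 39677 bp from Hepacam2, had no methylated read among 27 and 24, which allows 11.1% and 12.5%. Intervals and limits here cover counting error only.

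Off chromosome 18, the highest M-ATAC fold with a motif stood in an intron of Gphn, which encodes gephyrin, a scaffold protein of inhibitory synapses. Its fold was 36.7, 36.4, 40.5 and 41.9 in M-ATAC, 24.2 and 29.0 in M-ATAC-NC and 27.7 and 24.5 in ATAC. The region was chosen for its merged M-ATAC fold, and M-ATAC folds were higher than those of the controls over all members too. The CTCF fold there was 10.7 in the merged list, against a median of 11.5 over members. In the CTCF M-ChIP samples it was 8.11 and 5.27, below the medians over members of 9.93 and 7.96. The motif score was 8.15, near the lowest of any member (7.82). Methylation was 2.18% (45 of 2063 reads). The regions near Gm10509, with 0 of 834 reads methylated (limit 0.360%), and at an exon of the zinc finger gene Zfp286, with 15 of 1327 (1.13%), followed.

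The members ranked most methylated by lower Wilson bound were supported unevenly. A region 7720 bp from Gm48527 had 37 of 44 reads methylated (84.1%, Wilson 95% interval 70.6 to 92.1%), and no M-ATAC sample had a peak there although both ATAC (3.52 and 3.92) and all 6 CTCF samples did. The 31 bp around 1 of its 6 cytosines occurs elsewhere in the genome, as it does for 4 of the 21 cytosines of the region near AC151473.1 (86 of 157 reads, 54.8%). In an intron of Uck2, a kinase of pyrimidine nucleoside salvage expressed at 277.74 TPM, 57 of 98 reads were methylated (58.2%). No CTCF M-ChIP sample had a peak of its own there, and CTCF ChIP had one in 1 of 2 samples.

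The steepest rises from the motif to 100 to 200 bp rested on few reads. In an intron of Nxpe3 none of 23 motif reads (limit 13%) and 9 of 12 ring reads were methylated. In an intron of Anxa13, an annexin that binds membranes, the counts were 1 of 19 and 4 of 5, and in an intron of Tmem231, a protein of the base of cilia, 0 of 15 and 4 of 6. At the other end, members were ranked by upper Wilson bound. First was a region of 997 bp near Gm44738, with 2 of 2049 reads methylated (0.0976%) over 175 cytosines. It was found in all 14 samples and carried a match with a score of 24.9. A region 9005 bp from Rpn1, which encodes a subunit of the oligosaccharyltransferase, had 0 of 1020 (limit 0.294%).

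Members were counted within 50 kb of genes of 4 lists. Of 55341 annotated genes, 12287 (22.2%) had a member within 50 kb of a start. Of 39 Hox genes, the regulators of body axis identity, 15 did, although these shared 3 members among their clusters. Of 33 imprinted genes 7 did (8 members), of 20 pluripotency genes 9 did (9 members), and of 13 annotated genes of cohesin and CTCF partners 6 did (7 members). No test was made, and clustered genes count the same member several times.

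The member nearest to a Hox gene touched an exon of Evx2, a homeobox gene at the end of the HoxD cluster, 12177 bp from Hoxd13. It was found in no single M-ATAC or CTCF M-ChIP sample, but had a fold of 8.39 and 11.1 in CTCF ChIP, and 1 of 102 reads was methylated (0.980%). The member 5396 bp from Cdkn1c, an imprinted inhibitor of cyclin-dependent kinases, had 3 of 57 reads methylated (5.26%). The member 6586 bp from Dppa3, a maternal factor expressed in naive pluripotent cells, had 8 of 66 (12.1%). The member 5493 bp from Smc3, a core subunit of cohesin, was found in both CTCF M-ChIP samples (11.3 and 8.44) and in no M-ATAC sample, with 0 of 14 reads methylated (limit 21.4%).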

How the data were processed

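The authors trimmed reads with Trim Galore 0.4.4 and aligned them to mm10, with Bismark 0.18.1 for converted libraries and bowtie2 for ATAC and ChIP, and the aligner of the NC libraries is not given in the sources used here. They removed duplicates and reads of quality below 30 with SAMtools 1.3 and called peaks with MACS2 at a q-value of 0.01, on single samples and on merged replicates, but which M-ATAC replicates were merged is not stated. Each summit in the deposited MACS2 lists has a score, a ratio that is its fold over local background, and significance as −log10 of p and of q. For every cytosine the authors deposited the percent methylated with the count of reads behind it, after merging replicates. Matches to MA0139.1 come from FIMO and were deposited with their score and p-value. Expression was deposited as TPM after replicates had been merged.

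Lines of 1 region with several summits were joined and its highest fold was taken. A sample found a region if a peak overlapped it by at least 1 bp. Distances ran from the motif match of highest score. Cytosines were counted once, with at least 5 reads, and 4133 of 1636992 that lay 1 bp outside every region were left out. Methylation of a class is the mean over cytosines and that of a region its methylated over all reads. Soft-masking is that of the RefSeq copy of GRCm38. Groups of samples came from the labels and were compared by exact permutation tests, and cytosines by Fisher's exact test. The tests were run on simulated data first. The members and lists were chosen with earlier results of these data known.

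Regions off chromosome 18 with a match were named by rule: the 3 of highest CTCF fold, the 3 of highest M-ATAC fold, and, with at least 5 cytosines, the 3 of highest and of lowest methylation by Wilson bound and the 3 of largest rise from the motif to 100 to 200 bp, plus the nearest to a gene of each list. Each is named by the gene it lies in or that of the nearest start. Alternatives were the distance to a start, the overlap, the −log10 q minimum (5), the minimum of reads (1 or 10), the weighting, the choice of match, replicate support and each replicate left out. Peak lists and M-ChIP of cells without endogenous KLF4, whole-genome bisulfite data and single reads are not reported here. Scripts ran under python 3.11.15 with scipy 1.17.1, pandas 2.3.3, numpy 2.4.6, pyfaidx 0.9.0.4 and matplotlib 3.10.9.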

Additional observations from a re-analysis of the deposited data

Results flagged for a closer look

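In the 4 M-ATAC samples the median fold of the members was 6.35, 6.88, 6.38 and 6.36, and replicate 2 stood apart from the rest, with a gap that was 0.95 of the whole range. Distal unbound regions were also highest in replicate 2, at 7.13 against 6.54 to 6.76, and the ratio of the medians in it (0.965) lay among the others. It was the only 1 of 7 measures over the 4 M-ATAC samples to stand apart in this way, and chance sets apart about 1 group in 20.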

How the results depend on the processing

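Of 100 alternatives over 14 results, 4 turned in direction and 12 values or counts without a test moved clearly in size. The other 84 kept their direction, several with a marked change in size, and no test passed 0.05 in any. The number of members was 2559 beyond 10 kb, 2825 with 50% reciprocal overlap and 492 found in all 4 M-ATAC samples. The difference in share found between M-ATAC and M-ATAC-NC ran from −3.20 to 1.44 points with each replicate left out (1.44 without M-ATAC-NC replicate 2), and that from ATAC from −1.75 (without ATAC replicate 1) to 6.43 (without ATAC replicate 2), while with 50% of the region covered they were −4.78 (exact permutation p = 0.0667) and −0.232. CTCF M-ChIP ran from 0.918 to 14.2 points against CTCF M-ChIP-NC and from −17.1 to −6.11 against CTCF ChIP, which was −22.3 with 50% covered and −19.8 at −log10 q of at least 5. The fold ratio differences ran from 0.0309 to 0.0473 (ATAC) and 0.0381 to 0.0496 (M-ATAC-NC) with each replicate left out, but fell to 0.0187 and 0.0101 at −log10 q of at least 5, and that from ATAC to 0.0230 over all summits. The 3′ share ran from 4.69 to 5.71 points above 50%. The methods give the NC libraries as aliquots of converted ones, but not that they carry the same number, and the fold deviations of same-numbered samples correlated at −0.022 to 0.064 over regions. With the replicate number as a block, the share differences were 0.0108 (M-ATAC-NC), 3.23 (ATAC), 7.54 (CTCF M-ChIP-NC) and −11.6 (CTCF ChIP), and the ratio differences 0.0497 (ATAC) and 0.0543 (M-ATAC-NC). With 2 pairs the smallest exact permutation p is 0.5, so the block changed no call.

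Methylation differences moved in size but kept their sign. With at least 1 read, the ring at 100 to 200 bp was 4.30 points above the motif, members were 6.54 points below distal unbound regions (value −6.54) and 7.39 points above promoter CTCF-bound regions, and with at least 10 reads the 3 values were 0.438, −2.54 and 3.40. As methylated over all reads the ring was 0.570 points above the motif. Chosen after seeing the data, a ring of 50 to 100 bp gave 4.99, and the gap to distal unbound regions was −2.39 within classes of CpG density, −3.29 in regions found in all 4 M-ATAC samples and −8.12 in those found in none. The cause of these changes was not tested.

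The number of samples limits every test here, since 4 against 2 or 2 against 2 samples cannot reach 0.05. Merged tables give methylation no replicate error, and SDs over chromosomes do not replace it. At a median of 8 reads, methylation of single cytosines is coarse, and 603 members had no cytosine with 5 reads.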

Other observations

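Members were sparse along the genome. The median distance from 1 member to the next on its chromosome was 206.8 kb, and 250 of 4610 neighbouring pairs (5.42%) lay within 10 kb.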
